A study of Mus musculus with 24 samples.

Results

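Sertoli cells are the somatic nurse cells of the seminiferous tubule, and 10 genes that mark them were followed through RNA sequencing of Thumpd1 knockout and wild-type mice. The genes were Sox9, Wt1, Gata4, Rhox5, Amh, Amhr2, Inha, Dhh, Cldn11 and Clu. They were taken by symbol, as 10 of the 55450 genes in the table, and their values were read in the 8 testes libraries, with liver and cerebellum as background. Thumpd1 is an RNA-binding adaptor needed for the acetylation of serine and leucine tRNAs. Wild-type (WT) and knockout (KO) mice were compared in 3 tissues, with 4 libraries per genotype and tissue, numbered 1 to 4 in WT and 5 to 8 in KO. KO mice had lost Thumpd1 on both alleles, after Cas9 had been guided to exons 1 and 4 in C57BL/6N eggs. Both genotypes were kept on a C57BL/6 background, controls were age-matched littermates, and ages ran from 6 to 12 weeks. Every cell of a KO mouse lacked the gene, so the design holds no deletion limited to Sertoli cells. Several founder lines were made, and the line behind each library was not found in the sources used here. The study describes its libraries as biological replicates, while the labels name no animal for a library, so the p-values measure the spread between these samples.

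Sertoli cells hold the germ cells, feed them and build the barrier between the blood and the meiotic compartment. Their fate is set in the fetal gonad by transcription factors such as Sox9, with Wt1 and Gata4 needed for the lineage. They signal outwards through anti-Müllerian hormone, inhibin and desert hedgehog, and they answer to follicle-stimulating hormone and androgen. Sertoli cells stop dividing early in life, while germ cells turn over throughout adulthood. The RNA of a whole testis therefore mixes a small somatic share with a very large germ cell share.

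The deposited values were expected counts per gene. Libraries held 16353797 to 37889615 counts, and the testes libraries 27273231 to 36621604. Levels are given as CPM, expected counts scaled to a common library total, and changes as log2 KO over WT from limma-voom after quantile normalisation, with Benjamini-Hochberg adjustment over all genes tested and a threshold of 0.05. Thumpd1 stood at 24.3 to 26.3 CPM in WT testes and at 0.768 to 1.14 CPM in KO testes, where 23 to 41 counts per library remained. In liver and cerebellum KO libraries it had 0 to 4 counts. Alb reached a mean of 37750 CPM in WT liver against 0.0632 CPM in WT testes, and the cerebellar neuron gene Zic1 969.7 CPM in WT cerebellum against 0.163 CPM in WT testes. Replicate 7 of the KO group stood farthest from the other testes libraries of its genotype, with a median absolute difference over genes of 0.165 on the log2 scale, against 0.0669 to 0.144 for the other 7 libraries. In cerebellum, choroid plexus markers, led by Ttr, summed to 1052 and 1078 CPM in WT replicates 1 and 2 and to 361.8 and 361.6 CPM in KO replicates 7 and 8, against 17.9 to 23.5 CPM in the other 4 libraries. In testes, WT replicate 2 carried epididymal transcripts at 115.5 CPM in sum, while the other WT testes libraries lay between 4.31 and 5.62 CPM and the KO libraries between 20.4 and 34.0 CPM.

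The start regions of 2 members are printed because they hold the letters of factors that act in Sertoli cells. RefSeq windows of 300 bases (build GRCm38.p6) matched 5 of the 10 genes, Amhr2, Cldn11, Dhh, Rhox5 and Inha, and none was held for Sox9, Wt1, Gata4, Clu or Amh. Capitals mark the matches. The Amhr2 window lies on the plus strand at chr15:102445117-102445416 and the Rhox5 window on the plus strand at chrX:37754358-37754657.
Amhr2: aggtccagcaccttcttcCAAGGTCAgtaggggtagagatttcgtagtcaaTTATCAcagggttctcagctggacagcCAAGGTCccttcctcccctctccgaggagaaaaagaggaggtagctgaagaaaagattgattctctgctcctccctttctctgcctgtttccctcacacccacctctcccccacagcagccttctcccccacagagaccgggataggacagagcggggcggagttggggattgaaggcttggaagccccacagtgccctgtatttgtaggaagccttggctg
Rhox5: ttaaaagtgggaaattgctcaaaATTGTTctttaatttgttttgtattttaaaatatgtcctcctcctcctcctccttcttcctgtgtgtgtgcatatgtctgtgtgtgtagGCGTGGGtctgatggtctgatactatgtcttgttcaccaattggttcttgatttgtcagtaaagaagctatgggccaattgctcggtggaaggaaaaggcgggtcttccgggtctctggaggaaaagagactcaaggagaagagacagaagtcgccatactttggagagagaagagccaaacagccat
Both strands were searched for the letters of 4 families. Counting from the start site, Amhr2 held the GATA letters TGATAA at -199 on the minus strand. It also held NR5A1 letters, as CAAGGTC at -232 with an overlapping second form at -231, and again as CAAGGTC at -172. Rhox5 held the SOX letters AACAAT at -227 on the minus strand and the WT1-type letters GCGTGGG at -138. Rhox5 is a classical androgen target of Sertoli cells. The Cldn11, Dhh and Inha windows held none of the letters searched. The search took AGATAA, its variant with T as the first letter and the same pair ending in G for GATA factors. It took AACAAT for SOX factors, as well as AACAAAG, and CAAGGTC for NR5A1, as well as the overlapping form AAGGTCA. Of all 32851 RefSeq windows of this length, 29.8% held GATA letters, 15.7% SOX, 7.06% NR5A1 and 5.04% WT1-type letters. The letters of each family were found in 1 of the 5 member windows. A match describes the letters only. The Rhox5 window lies upstream of the gene as the counting annotation places it (chromosome X, 37804842 to 37808876), and the Inha window begins inside its gene (chromosome 1, 75507077 to 75510366), so these 2 windows are not at the start used for counting.

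In testes all 10 genes read higher in KO than in WT, and 8 of them passed the test. Over all 19329 genes tested in testes, 9.74% were called higher, 10.7% lower and 20.5% in either direction. The changes of the 8 called genes ran from 0.40 for Cldn11 to 0.69 for Rhox5 on the log2 scale, and all 10 members passed the filter on low values. In such bulk samples fewer cells of a type and less RNA per cell cannot be told apart, and likewise more cells and more RNA per cell.

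The transcription factors of the lineage are described first. Sox9 drives Sertoli cell fate and is kept on in the adult cell. Sox9 (chromosome 11, 112782224 to 112787760) read 28.2, 30.4, 26.4 and 25.3 CPM in the WT libraries and 34.5, 36.7, 53.1 and 49.1 CPM in the KO libraries. Every KO library lay above every WT library, and the KO values fell into a lower pair (replicates 5 and 6) and a higher pair (replicates 7 and 8). Its log2 change was 0.55 ± 0.13 (SE, n = 4 per group), with an adjusted p of 0.0130.

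Wt1, a zinc finger factor required to form the gonad and to keep Sertoli identity, showed the same lower and higher pairs among the KO libraries. Wt1 (chromosome 2, 105126529 to 105173616) read 66.6, 66.3, 60.1 and 57.2 CPM in WT and 83.6, 80.4, 111.7 and 101.2 CPM in KO. The groups did not overlap, and replicate 7 was again the highest. The log2 change was 0.55 ± 0.10 (SE), with an adjusted p of 0.00621.

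Gata4 is a zinc finger factor of the somatic gonad that acts on many Sertoli promoters, and Leydig cells make it too. Gata4 (chromosome 14, 63198922 to 63271692) read 32.5, 33.8, 31.9 and 29.5 CPM in WT and 32.6, 35.5, 51.3 and 44.6 CPM in KO. KO replicate 5 lay among the WT libraries, so the groups overlapped. The log2 change of 0.26 ± 0.12 (SE) had an adjusted p of 0.128 and was not called, with a 95% interval from 0.0054 to 0.52. It was 0.16 without KO replicate 7 (adjusted p 0.311) and 0.11 with sample quality weights.

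Rhox5 is a homeobox gene of the X chromosome that androgen switches on in Sertoli cells, and the epididymis makes it too. Rhox5 read 4.55, 3.69, 4.35 and 4.02 CPM in WT and 7.16, 7.70, 8.71 and 5.71 CPM in KO, from 119 to 319 counts per library. All 4 KO libraries lay above all WT libraries. Its log2 change was 0.69 ± 0.13 (SE), with an adjusted p of 0.00712. WT replicate 2, the library with the most epididymal transcripts, had the lowest Rhox5 of the 8, while the KO libraries exceeded the other 3 WT libraries in both, and the part of epididymal RNA in this change was not tested.

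The hormones and the hormone receptor come next. Amh encodes anti-Müllerian hormone, which makes the Müllerian duct regress in the male fetus and falls to a low level once the testis matures. Amh (chromosome 10, 80805243 to 80807648) read 1.99, 1.58, 1.24 and 1.51 CPM in WT and 2.40, 1.76, 3.52 and 3.81 CPM in KO. These are 37 to 64 counts per WT library and 48 to 129 per KO library, the lowest of the 10 genes, and KO replicate 6 lay within the WT range. The log2 change of 0.71 ± 0.24 (SE) had an adjusted p of 0.0574 and was not called. Amh was called by edgeR (adjusted p 0.0303), by DESeq2 (0.00941) and by limma-voom with TMM factors (0.0435), and over the alternatives its adjusted p ran from 0.00941 to 0.157.

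Amhr2 encodes the type 2 receptor that binds this hormone, and both Sertoli and Leydig cells carry it. Amhr2 (chromosome 15, 102445367 to 102454633) read 145.4, 167.0, 144.9 and 135.8 CPM in WT and 177.0, 186.2, 249.8 and 212.7 CPM in KO. The groups did not overlap, although KO replicate 5 lay close above WT replicate 2. The log2 change was 0.50 ± 0.11 (SE), with an adjusted p of 0.0107.

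Inha encodes the alpha subunit of inhibin, by which Sertoli cells hold back follicle-stimulating hormone from the pituitary. Inha read 77.5, 80.9, 69.3 and 67.8 CPM in WT and 87.3, 91.5, 140.0 and 101.3 CPM in KO. All KO libraries lay above all WT libraries, and replicate 7 stood 1.5-fold above the mean of the other KO libraries. The log2 change was 0.47 ± 0.13 (SE), with an adjusted p of 0.0313.

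Desert hedgehog, encoded by Dhh, is the Sertoli ligand that Leydig and peritubular cells receive. Dhh (chromosome 15, 98891152 to 98898540) read 19.9, 21.4, 18.4 and 18.5 CPM in WT and 23.6, 25.6, 32.7 and 29.9 CPM in KO, without overlap. Its log2 change was 0.42 ± 0.094 (SE), with an adjusted p of 0.0127. The exons of Dhh share 546 bp with Rhebl1 on the same strand and 1107 bp with an antisense gene, Gm49442, and the strand setting of the counting was not given in the sources used here, so this value is uncertain. No exon overlap with another gene was found for the other 9 members.

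Cldn11 encodes a claudin of the tight junctions between Sertoli cells, where the blood-testis barrier lies, and oligodendrocytes use the same claudin in myelin. Cldn11 (chromosome 3, 31149920 to 31164324) read 83.3, 84.4, 73.9 and 73.0 CPM in WT and 95.6, 93.5, 129.8 and 104.6 CPM in KO. The groups did not overlap. The log2 change was 0.40 ± 0.10 (SE), with an adjusted p of 0.0196.

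Clu encodes clusterin, a secreted chaperone that is a main product of Sertoli cells and of the liver and epididymis. Clu (chromosome 14, 65968483 to 65981547) read 831.7, 884.4, 769.1 and 743.7 CPM in WT and 933.7, 969.3, 1372 and 995.2 CPM in KO. Replicate 7 stood far above the other KO libraries, which lay close to one another and still above every WT library. The log2 change was 0.46 ± 0.12 (SE), with an adjusted p of 0.0236.

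**Figure D1:**
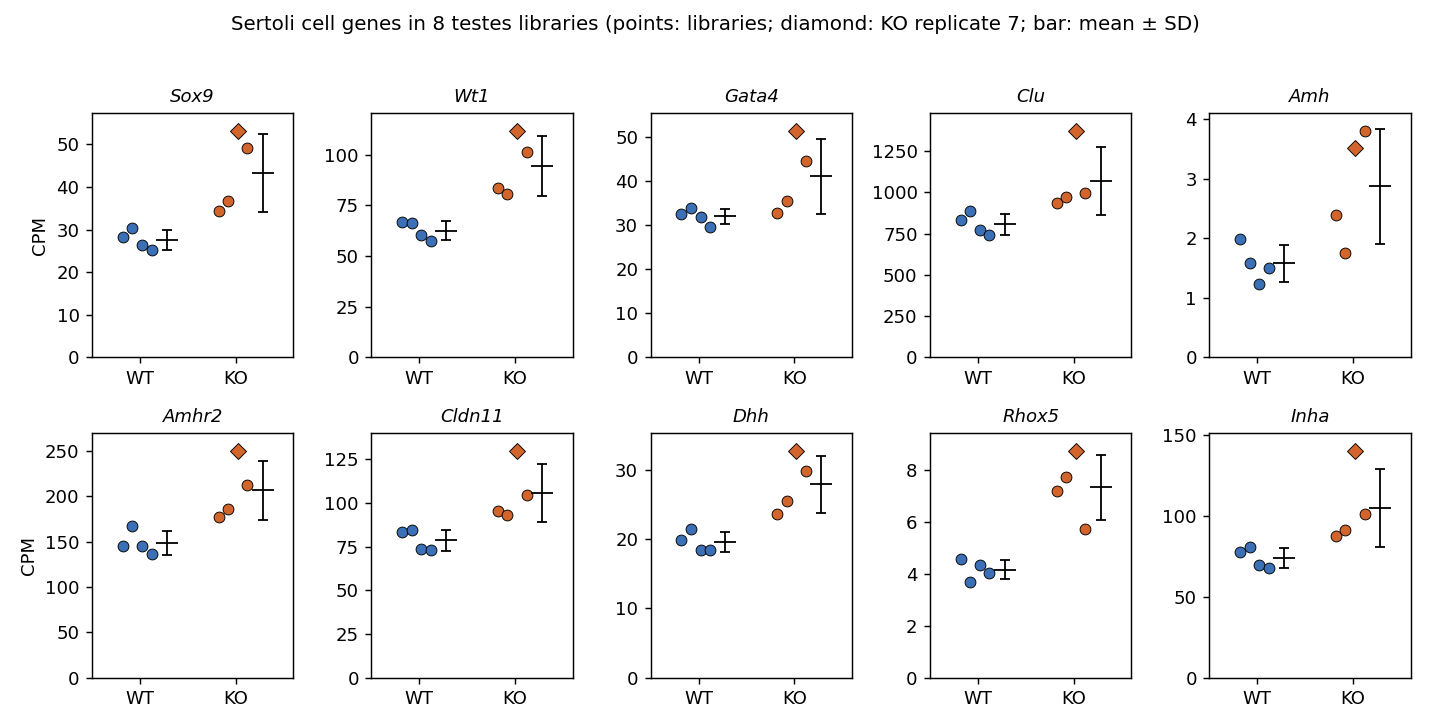
Level of the 10 Sertoli cell genes in the 8 testes libraries, 1 panel per gene, with CPM on the vertical axis from 0, WT in blue, KO in orange, KO replicate 7 as a diamond and bars for the mean ± SD of 4 libraries. All KO points lie above all WT points for 8 genes, and KO points reach into the WT range for Gata4 and Amh.

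Read by library, most genes shared their extremes. KO replicate 7 was the highest of the 8 libraries for 9 genes and KO replicate 8 for Amh, while WT replicate 4 was the lowest for 7 genes. The KO and WT libraries did not overlap for 8 of the 10 genes, against 18.8% of all genes tested in which all KO libraries lay above all WT libraries and 9.8% in which all lay below. Added up, the 10 genes came to 1256 ± 97.2 CPM without the knockout and to 1701 ± 309 CPM with it (mean ± SD of 4), with ranges of 1156 to 1374 and 1477 to 2152 CPM. Without KO replicate 7 the ratio of group means fell from 1.57 to 1.45 for Sox9 and from 1.42 to 1.26 for Inha. The same 8 genes were called without that library, with a range of 0.29 for Cldn11 to 0.61 for Rhox5 on the log2 scale, where 6.35% of genes were called higher.

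Other libraries and settings decided some of these calls. edgeR, DESeq2 and limma-voom with TMM factors each called 9 members, all but Gata4, where they called 4442, 5039 and 4434 of all genes against 3957 in the fit reported. Without a filter on low values 7 members were called, with Inha lost (adjusted p 0.0561). Without WT replicate 3, or without WT replicate 4, 5 members were called, and Clu, Cldn11 and Inha were no longer among them. Inha also lost its call without WT replicate 1 and without KO replicate 8, while without KO replicate 5 all 10 were called. One fit over the 24 libraries called 4 members, Sox9, Wt1, Amhr2 and Dhh, and these 4 were called under each of the 17 settings tried. Apart from the fit without KO replicate 7, the share of all genes called in the leave-out, no-filter and 24-library fits is not given. A lower count of members in those fits is therefore not a result about the members. Scaling by library totals alone, an alternative chosen after seeing the data, called 9 members. It moved the median of all genes from 0.0001 to 0.072 on the log2 scale, with 24.4% of genes called, 16.5% as higher.

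A wider list of 28 Sertoli genes, none of them a member, served as a yardstick for the cell type. Like the other lists it was chosen with earlier results of these data known, so it is not independent of them. Of the 26 that were tested 17 were called higher and none lower, where 9.74% of all genes were called higher. All 26 had a positive change, with a median of 0.40 on the log2 scale against 0.48 for the 10 members and 0.0001 for all genes tested. Serpina5, a protease inhibitor, changed by 0.62 ± 0.098 (SE, adjusted p 0.00346). Shbg, the androgen-binding protein of Sertoli cells, changed by 0.67 ± 0.11 (SE, adjusted p 0.00366). Ctsl, the protease cathepsin L that Sertoli cells secrete in cycles, changed by 0.57 ± 0.096 (SE, adjusted p 0.00438) and had the highest WT level of the list, 196.9 CPM. Its exons overlap an antisense gene and a pseudogene, so its value is uncertain. Only 8 of the 26 stayed called higher without WT replicate 4, 9 without WT replicate 3 and 14 without KO replicate 7.

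The members were then compared with this yardstick, to ask whether any of them moved more or less than other Sertoli genes. Each library was scaled by the median ratio of its counts over the 26 tested genes of the wider list. Relative to library totals, and to the geometric mean of the WT libraries, this factor was 0.949 to 1.07 in WT and 1.29, 1.28, 1.69 and 1.38 in KO replicates 5 to 8. On this scale 0 of the 10 members were called by limma-voom and 0 by edgeR, and 1 member, Rhox5, had an unadjusted p under 0.05 with either tool. Of all genes tested 62.7% were called, 62.2% as lower and 0.507% as higher, and their median was -0.42 on the log2 scale.

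The values on this scale ran from -0.15 for Gata4 to 0.33 for Amh, with a median of 0.0071. Rhox5 stood at 0.32 ± 0.15 (SE), with an unadjusted p of 0.0473, an adjusted p of 0.0708 and a 95% interval from 0.0044 to 0.63. Amh stood at 0.33 ± 0.22 (SE), with an interval from -0.13 to 0.80. The other 8 genes lay between -0.15 and 0.14. Their 95% intervals lay between -0.36, the lower end for Gata4, and 0.37, the upper end for Sox9. Without KO replicate 8 Rhox5 was called (0.43, adjusted p 0.0203), and without KO replicate 6 Amh was called (0.49, adjusted p 0.0454). Over the alternatives the adjusted p ran from 0.0203 to 0.194 for Rhox5 and from 0.0454 to 0.390 for Amh. Without KO replicate 7 neither was called, and 0.6% of genes were called higher.

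**Figure D2:**
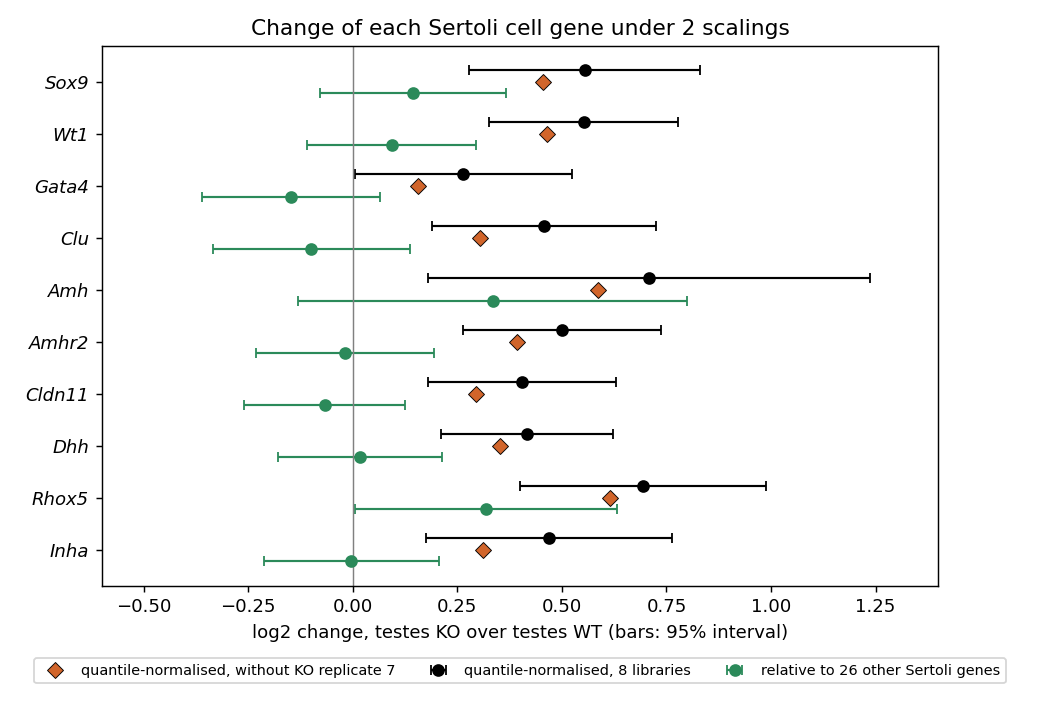
Log2 change of each Sertoli cell gene in testes, KO over WT, after quantile normalisation (black, with 95% intervals), without KO replicate 7 (orange diamonds) and relative to 26 other Sertoli genes (green, with 95% intervals). The black points lie between 0.26 and 0.71 and the green points between -0.15 and 0.33, and of the green intervals the one for Rhox5 alone leaves out 0.

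Some markers of spermatids were called lower in KO testes, where 10.7% of all genes were called lower. Of 12 markers of elongating spermatids, 7 were called lower and 0 higher, and their summed level was 17810 to 18680 CPM in WT and 13510 to 16530 CPM in KO, with the lowest value in replicate 7. Without replicate 7, 4 of the 12 were called lower. Oaz3, an antizyme of spermatids, changed by -0.35 ± 0.057 (SE, adjusted p 0.00378), and Prm2, a protamine that packs sperm DNA, by -0.28 ± 0.080 (SE, adjusted p 0.0313), while Prm2 alone held a mean of 3130 CPM in WT testes. Of 11 markers of round spermatids 5 were called lower, with summed levels of 1545 to 1605 CPM in WT and 1256 to 1530 CPM in KO, and 0 without replicate 7. The exons of Oaz3 overlap those of Tdrkh and Mrpl9, so its value is uncertain.

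Earlier germ cells showed fewer calls, beside 9.74% of all genes called higher and 10.7% lower. Among 13 spermatocyte markers 1, Ccna1, which overlaps an antisense gene and is uncertain, was called lower and 0 higher, with summed levels of 3917 to 4201 CPM in WT and 3560 to 4145 CPM in KO. Of 9 tested spermatogonial markers Zbtb16, a factor of undifferentiated spermatogonia, was called higher (0.72 ± 0.13, SE, adjusted p 0.00619) and Dmrtb1 lower (-0.18 ± 0.048, SE, adjusted p 0.0217). Dmrtb1 and Ccna1 lost their calls without KO replicate 7. The spermatogonial list, led by Dmrtb1, summed to 715 to 734 CPM in WT and 640 to 681 CPM in KO.

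Somatic neighbours gave mixed values, beside 9.74% of all genes called higher and 10.7% lower. Of 10 Leydig markers 2 were called higher and 2 lower, and the summed level ran from 1260 to 1351 CPM in WT and from 1132 to 1776 CPM in KO, where the top value was that of replicate 7 and the other KO libraries lay below all WT libraries. Without replicate 7, 5 Leydig genes were called lower and 2 higher, beside 13.3% of all genes called in either direction. Hsd3b1 (0.94 ± 0.18, SE, adjusted p 0.00700) and Hsd3b6 (-0.99 ± 0.16, SE, adjusted p 0.00380), steroid dehydrogenases, went in opposite directions, and as close paralogues they may share reads. Of 9 macrophage markers 1 was called higher, Mrc1, which was not called without replicate 7, and the summed level was 82.3 to 93.9 CPM in WT and 98 to 129 CPM in KO, without overlap. Endothelial markers summed to 58.9 to 64.1 and 58.5 to 84.2 CPM, and peritubular myoid markers to 345 to 365 and 311 to 349 CPM, each with 1 of 7 genes called lower.

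Of 7 epididymal genes 3 were tested and 2 were called higher, Crisp1 and Adam7, while Lcn5 and Lcn8 had no count in any testes library. Crisp1, a sperm-coating protein of the epididymis, averaged 23.95 CPM over the WT libraries, nearly all from replicate 2, and 19.5 CPM over the KO libraries, and its log2 change was 3.86 ± 1.24 (SE, adjusted p 0.0481, and 0.0612 without KO replicate 7). The part of other cell types in the change of the 10 genes was not tested.

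**Figure D3:**
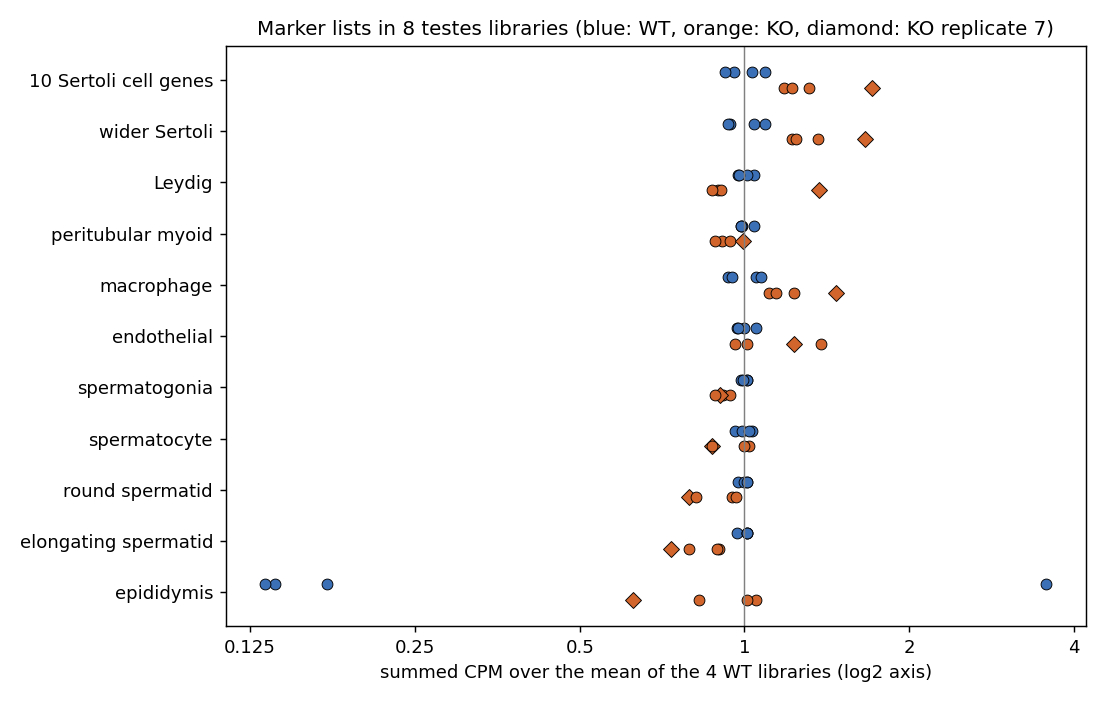
Summed CPM of each marker list in the 8 testes libraries, divided by the mean of the 4 WT libraries, on a log2 axis, with WT in blue, KO in orange and KO replicate 7 as a diamond. The 10 Sertoli cell genes (1.18 to 1.71) and the wider Sertoli list (1.22 to 1.66) lie above the WT range in every KO library, the elongating spermatid list (0.734 to 0.898) lies below it, and the epididymis list of WT replicate 2 stands at 3.56.

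The pathways in which the members act were read from fixed lists, members included. Of 9 AMH pathway genes 2 were called higher, Amhr2 and Bmpr1a, a type 1 receptor (0.29 ± 0.070, SE, adjusted p 0.0173), and 1 lower, Smad1, a signal transducer of this receptor class (-0.26 ± 0.072, SE, adjusted p 0.0262). The list median was 0.14 on the log2 scale, and 1 of the 2 called higher is the member Amhr2, where 9.74% of all genes were called higher. Bmpr1a overlaps an antisense gene and is uncertain. Without KO replicate 7 the same receptors were called and Smad1 was not (adjusted p 0.0588).

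Of 10 tested inhibin and activin genes 2 were called higher and 0 lower, with a list median of 0.25, where 9.74% of all genes were called higher, and 1 of the 2 is the member Inha. They were Inha and Tgfbr3, the coreceptor betaglycan through which inhibin acts (0.35 ± 0.11, SE, adjusted p 0.0382), although betaglycan overlaps an unclassified transcript. Inhbb, the beta B subunit that pairs with Inha in inhibin B, had a mean of 32.2 CPM in WT against 44.8 CPM in KO (0.39 ± 0.13, SE, adjusted p 0.0542) and was not called. Inhba was too low to be tested. Inha alone was called of these genes without KO replicate 7.

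Hedgehog signalling runs from Dhh to receptors on neighbouring cells. Of 14 genes 5 were called higher, among them Dhh and Hhip, the decoy receptor that hedgehog induces (0.63 ± 0.17, SE, adjusted p 0.0273, uncertain because its exons overlap a small RNA gene on the other strand), and 1 lower, Sufu, the inhibitor of Gli factors (-0.26 ± 0.065, SE, adjusted p 0.0182). The list median was 0.34, where 9.74% of all genes were called higher and 10.7% lower. Ptch1, the receptor and a direct target of the pathway, stood at 0.44 ± 0.14 (SE, adjusted p 0.0410), and Smo, the signal carrier, and Gli3, an effector that overlaps a transcript on the other strand and is uncertain, were the other two called higher. Without KO replicate 7, 1 gene of the list was called higher, the member Dhh, beside 6.35% of all genes, and Sufu remained called lower.

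Among 13 genes of the blood-testis barrier junctions 5 were called higher and 0 lower, where 9.74% of all genes were called higher, and the median was 0.27. Besides Cldn11 they were Gja1, the main connexin of Sertoli cells (0.45 ± 0.084, SE, adjusted p 0.00629), Ctnnb1, the beta catenin of adherens junctions (0.40 ± 0.084, SE, adjusted p 0.0102), Tjp1, the scaffold ZO-1 (0.28 ± 0.061, SE, adjusted p 0.0113), and F11r, an adhesion molecule. Ctnnb1 overlaps Ulk4 on the other strand and is uncertain. Of 16 Sertoli transcription factors 5 were called higher and 0 lower, beside the same 9.74% of all genes, with a median of 0.29, and all 16 had a positive change. The members Sox9, Wt1 and Rhox5 were among those called, as was Gata1, a factor of mature Sertoli cells (0.51 ± 0.13, SE, adjusted p 0.0175). Without KO replicate 7, 5 genes of each list were called higher, beside 6.35% of all genes.

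Genes outside all lists were ranked by how closely their CPM followed the mean log2 CPM of the 10 members over the 8 testes libraries, out of 14071 candidates. The closest were Plekhg1 (Pearson r = 0.998), Ywhab (0.997), Bhmt (0.997) and Rab11fip1 (0.996). These correlations are a description, since the 8 points share their libraries and fall into 2 groups.

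Levels across the tissues were compared next. Per kb of exon, Clu was highest in WT testes at 235 ± 18.4 CPM per kb, followed by Amhr2 at 73.9 ± 6.60, Inha at 50.1 ± 4.30 and Cldn11 at 42.1 ± 3.22 (SD, n = 4). Wt1 (10.1), Gata4 (8.18), Sox9 (6.67), Rhox5 (5.51), Dhh (4.44) and Amh (0.946) followed. No neighbours in this order overlapped between WT libraries, the closest being Rhox5, at 4.90 to 6.03, and Dhh, at 4.19 to 4.87 CPM per kb. KO testes had the same order of means, but there Wt1 overlapped with Gata4, Gata4 with Sox9 and Sox9 with Rhox5, and Inha overlapped with Amhr2 and Cldn11.

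Of the 3 tissues, testes held nearly all the signal of 4 members. Amhr2 read 135.8 to 167.0 CPM in WT testes, 0.148 to 0.389 CPM in WT liver and 0.510 to 1.05 CPM in WT cerebellum. Wt1 read at most 0.778 CPM in WT liver and had 1 count in 1 of the 4 WT cerebellum libraries. Dhh read at most 0.522 CPM in either tissue. Rhox5 had 2 counts over the WT liver libraries and none in WT cerebellum, where the 3 counts that a 0 allows make testes at least 25.4-fold higher than the shallowest library could hide.

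The other members had a second tissue. Gata4 read 28.1 to 40.3 CPM in WT liver, which overlaps its WT testes range of 29.5 to 33.8 CPM, and no count in cerebellum, at least 195-fold below testes by the same limit. Clu was highest in WT liver at 1008 to 1326 CPM and lowest in cerebellum at 238 to 297 CPM. Sox9 was highest in WT cerebellum, at 50.3 to 54.1 CPM, where astrocytes make it. Cldn11 read 40.7 to 53.6 CPM in WT cerebellum, and Inha 19.9 to 22.05 CPM. Amh read 1.68 to 2.07 CPM in cerebellum, within reach of its testes range of 1.24 to 1.99 CPM.

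In the test of WT testes against WT liver 9 of 10 members were called, against 92.1% of all genes, with 57.1% called higher and 35% lower. Of the 9, the 7 that were too low for the liver fit (Wt1, Amh, Amhr2, Cldn11, Dhh, Rhox5 and Inha) entered this comparison only through testes, where they are high, so this count says little about the members. Clu (-1.52 ± 0.14, SE) and Gata4 (-1.05 ± 0.13, SE) were lower in testes, and Sox9 (0.23 ± 0.14, SE, adjusted p 0.122) was not called by limma-voom, while DESeq2 called it (0.38, adjusted p 0.00105) and with it 10 of the 10 members. These values rest on scaling. Library totals in place of TMM moved the median of all genes from 0.93 to 1.87 on the log2 scale, Gata4 to -0.11 (adjusted p 0.465) and Sox9 to 1.16 (adjusted p 4.21e-07). Against WT cerebellum 9 of 10 were called, beside 93% of all genes, with 52.4% called higher and 40.7% lower. Of these, 5 (Wt1, Gata4, Amhr2, Dhh and Rhox5) were too low for the cerebellum fit and entered only through testes, so their calls followed from the filter. Sox9 was lower in testes there (-0.66 ± 0.11, SE), Clu (1.87 ± 0.11, SE), Cldn11 (1.00 ± 0.11, SE) and Inha (2.09 ± 0.14, SE) were higher, and Amh was not called (0.011 ± 0.25, SE, adjusted p 0.965, and -0.26 by library totals). Without the 4 cerebellum libraries with choroid plexus transcripts 9 of 10 were called as well, beside 91.5% of all genes, and Amh stood at -0.012.

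**Figure D4:**
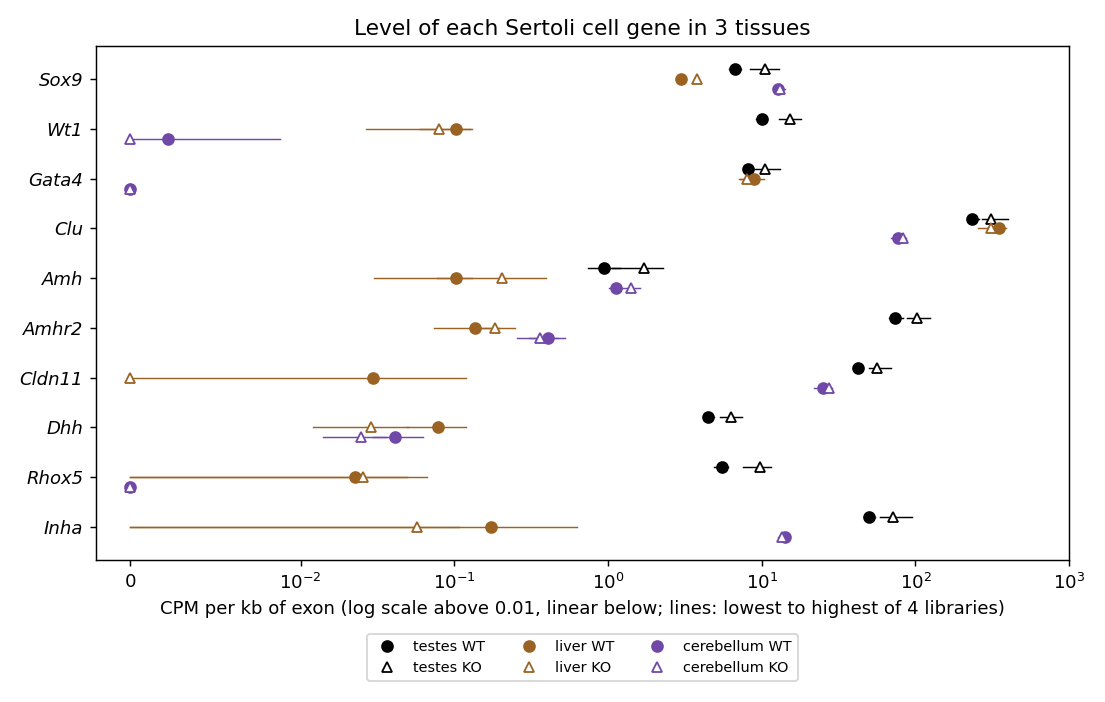
Level of each Sertoli cell gene in testes (black), liver (brown) and cerebellum (purple) as CPM per kb of exon, on an axis that is logarithmic above 0.01 and linear below, with filled circles for WT means, open triangles for KO means and lines from the lowest to the highest of 4 libraries. Gata4 and Rhox5 lie at 0 in cerebellum, Clu is above 50 in every tissue, and the KO triangles lie to the right of the WT circles for all 10 genes in testes.

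The effect of the knockout was finally read in the tissues that have no Sertoli cells. In liver 3 members passed the filter and 1 was called, against 5.91% of genes called in either direction, 2.79% higher and 3.12% lower. It was Sox9, which bile duct cells make, at 11.8, 11.7, 13.1 and 12.5 CPM in WT and 15.7, 15.98, 15.7 and 15.3 CPM in KO. All KO libraries lay above all WT libraries, as for 7.34% of genes, while 5.31% lay wholly below, and the log2 change was 0.36 ± 0.089 (SE, adjusted p 0.0422). The call was lost without any 1 of WT replicates 1 to 3 or of the 4 KO replicates (0.31 to 0.39, adjusted p 0.0589 to 0.134). Gata4 (-0.093 ± 0.085, SE, adjusted p 0.558) and Clu (-0.20 ± 0.096, SE, adjusted p 0.236) were not called in liver.

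In cerebellum 5 members were tested and 0 were called by limma-voom, against 6.44% of genes, 3.93% higher and 2.51% lower, and none had an unadjusted p under 0.05 by limma-voom, edgeR or DESeq2. Sox9 stood at 0.049 ± 0.052 (SE, 95% interval -0.064 to 0.16), with 50.3 to 54.1 CPM in WT and 50.2 to 58.6 CPM in KO. Clu stood at 0.11 ± 0.066, Amh at 0.24 ± 0.17, Cldn11 at 0.11 ± 0.078 and Inha at -0.075 ± 0.065 (SE, n = 4 per group). The groups overlapped for all 5, whereas KO lay wholly above WT for 8.79% of genes and wholly below for 4.99%.

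The 4 cerebellum libraries with choroid plexus transcripts changed this picture when they were left out, an alternative chosen after seeing the data. With WT replicates 3 and 4 against KO replicates 5 and 6, 2 of the 5 members were called higher, beside 2.59% of genes called. They were Clu (0.24 ± 0.056, SE, adjusted p 0.0414) and Cldn11 (0.29 ± 0.070, SE, adjusted p 0.0415). Clu read 238.3 and 242.5 CPM in these WT libraries and 291.9 and 267.2 CPM in these KO libraries, against 281.2 and 297.3 CPM in WT replicates 1 and 2. Cldn11 read 42.3 and 40.7 CPM against 50.5 and 52.5 CPM, with 53.6 and 52.0 CPM in WT replicates 1 and 2. Oligodendrocyte markers, led by Mbp, moved in the same way, with 2819 and 2877 CPM in WT replicates 1 and 2, 2408 and 2388 CPM in WT replicates 3 and 4, and 2760 to 2963 CPM in the KO libraries. The part of either cell type in these values was not tested.

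Whether the change in testes differed from that in another tissue was tested directly. Against cerebellum 1 of 5 members was called, beside 19.5% of genes, of which 10.6% were higher and 8.83% lower as a share of all tested. The KO effect on Sox9 was higher in testes by 0.48 ± 0.13 (SE, adjusted p 0.0182), with 0.40 to 0.58 and an adjusted p of 0.00288 to 0.0434 over the alternatives other than 1. Without the 4 cerebellum libraries with choroid plexus transcripts it was 0.44 ± 0.18 (SE, adjusted p 0.147) and 0 of 5 members were called by limma-voom, beside 5.52% of genes, with 2 at an unadjusted p under 0.05. Inha differed by 0.44 ± 0.17 (SE, adjusted p 0.0672), and it was called by edgeR (adjusted p 0.0318) and DESeq2 (adjusted p 0.0233). It was also called without testes KO replicates 5, 6 or 7 (0.0264 to 0.0439) and with the replicate number as a block (0.0074), with a range of 0.0074 to 0.216 over alternatives. The differences of Amh (0.43 ± 0.30), Cldn11 (0.20 ± 0.13) and Clu (0.19 ± 0.13, SE) were not called, with 95% intervals that reached from -0.21 to 1.07 for Amh.

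Against liver 0 of 3 members were called by limma-voom, beside 9.85% of genes, 4.78% higher and 5.07% lower, and 2, Gata4 and Clu, had an unadjusted p under 0.05. The difference was 0.44 ± 0.15 (SE, adjusted p 0.0627) for Clu, 0.32 ± 0.14 (SE, adjusted p 0.161) for Gata4 and 0.14 ± 0.16 (SE, adjusted p 0.624) for Sox9. edgeR called 0 of the 3 and DESeq2 called 1, Clu (adjusted p 0.0420). Gata4 was called without testes KO replicate 5 (0.40, adjusted p 0.0478). With the replicate number as a block Gata4 (0.34, adjusted p 0.0298) and Clu (0.44, adjusted p 0.0071) were called, though the labels do not say what a shared number stands for. Clu was also called without liver WT replicate 4, liver KO replicate 7, liver KO replicate 8 or testes KO replicate 5, and over all alternatives its adjusted p ran from 0.0071 to 0.131. The testes libraries serve in both of these comparisons, so the 2 are not independent.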

How the data were processed

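RNA from testes, liver and cerebellum of WT and KO mice was made into stranded total RNA libraries after ribosomal depletion and read as paired ends on a NovaSeq instrument. The authors aligned reads with STAR to mm10 and deposited RSEM expected counts per gene of the GENCODE M21 annotation (versions and strand setting not given in the sources used here), of which 12.3% to 16.6% of the nonzero values per library were not whole. All 24 columns were matched by label and 0 were left over.

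Genes with at least 1 CPM in at least 4 libraries of a tissue were fitted with limma-voom (limma 3.58.1, R 4.3.3) after quantile normalisation, following the study. Fits across tissues used TMM factors and a 2-sided moderated test. edgeR 4.0.16 and DESeq2 1.42.0 were run on rounded counts as alternatives, beside other filters, sample weights, one fit over all 24 libraries, the replicate number as a block and leaving out each library. Scaling by library totals alone, and leaving out 4 cerebellum libraries with choroid plexus transcripts, were chosen after seeing the data. The testes fit, the scaling to the wider list and the testes minus cerebellum fit had first been tested on simulated data with known changes. These simulations gave every gene and library the same spread, and the other fits were not simulated. Intervals and limits cover the spread between libraries or counting error only.

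The members and all gene lists were chosen with earlier results of these data known. Named genes were the members, Thumpd1, up to 3 genes of each list with the lowest unadjusted p and its most abundant gene in WT testes, the tissue markers, and the genes most like the members, of which 5 were sought. Some items that this rule or the lists take in are not reported here. Outside that rule Ptch1, Smo, Gli3, F11r, Gata1, Inhba, Lcn5 and Lcn8 were named after their values were seen.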

Additional observations from a re-analysis of the deposited data

Results flagged for a closer look

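In 4 of the 54 groups of 4 libraries tested, 1 library stood apart from the other 3 by Dixon's test, which chance does in about 1 of 20 groups. Clu in testes KO replicate 7 was at 1372 CPM, against 933.7 to 995.2 CPM in the other KO libraries. In liver WT replicate 4, Cldn11 was at 0.2223 CPM and Inha at 0.9262 CPM, while the other WT libraries had no Cldn11 count and at most 0.0622 CPM of Inha. Wt1 in cerebellum WT replicate 3 was at 0.05445 CPM, which is 1 count where the other libraries had none. These last values rest on few counts (6, 25 and 1). The KO effect on Sox9 differed between tissues, by 0.48 on the log2 scale between testes and cerebellum, and this difference was tested (adjusted p 0.0182, and 0.147 without the 4 cerebellum libraries with choroid plexus transcripts). It was 1 of 5 members called where 19.5% of all genes were. Between testes and liver, where Sox9 was called higher in KO too, the difference was 0.14 ± 0.16 (SE, adjusted p 0.624). No explanation was tested.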

How the results depend on the processing

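Of the 10 members 8 were called in testes, and the count was 9 with edgeR, 9 with DESeq2, 9 with TMM factors, 7 with no filter, 4 in one fit over the 24 libraries and 5 to 10 when 1 library was left out. The wider Sertoli list had 17 genes called and 8 to 21 with 1 library left out. Shares of all genes called were not set beside most of these counts, so a lower count is not a result about the listed genes. In liver the count of 1 became 0 with no filter and with the weaker filter, and 0 to 1 with 1 library left out. The fit over 24 libraries called 1 member, Dhh, as lower (-1.38, adjusted p 0.0321), in place of Sox9, but Dhh, at 2 to 16.1 counts per liver library, passed the filter there only through testes. Relative to the wider list the count of 0 became 0 to 1. For the difference between testes and liver the count of 0 became 1 with DESeq2 and 0 to 2 with 1 library left out, and for testes and cerebellum the count of 1 became 2 with edgeR, 2 with DESeq2 and 1 to 2. Leaving out the 4 cerebellum libraries with choroid plexus transcripts, chosen after seeing the data, gave 0 for that difference and 2 in place of 0 for cerebellum. With the replicate number as a block the counts for the difference of testes from liver and from cerebellum were 2 (Gata4, adjusted p 0.0298, and Clu, 0.0071) and 2 (Sox9, 0.0241, and Inha, 0.0074). The block was run only in the fits across tissues, and the counts for WT testes against WT liver and WT cerebellum did not change with it. The labels do not say what a shared number stands for, and the libraries were not treated as paired, since the correlation of deviations for the same number ran from -0.066 to 0.146 between testes and liver and from -0.101 to 0.16 between testes and cerebellum, above 0.1 for 4 and 2 of 8 libraries, and 2 and 4 of 8 matched their own number best. The cause of these changes was not tested.

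Signs changed for values near 0. Amh in WT testes against WT cerebellum was -0.037 with the weaker filter, -0.26 by library totals, -0.012 without the choroid plexus libraries and -0.082 to 0.12 with 1 library left out. Relative to the wider list, Amhr2 (0.021) and Inha (0.035) turned positive with summed counts as the yardstick and Inha (0.0029) with edgeR, and leaving out 1 library gave -0.032 to 0.016 for Amhr2, -0.059 to 0.040 for Inha and -0.011 to 0.061 for Dhh. Calls in the main fits rest on 4 libraries per group, and calls with libraries left out rest on fewer. Amh, at 37 to 129 counts, is the least precise of the 10. Libraries of a group were not equally close, by a chi-square per gene between their counts. In testes it was 2.23 for WT replicates 3 and 4, against 5.77 to 11.4 for other WT pairs. For KO replicates 5 and 6 it was 3.21, against 13.7 to 28.2 for other KO pairs. Whether such pairs share a source was not tested, while the main fits treated libraries as independent.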
